A study of Mus musculus with 48 samples.

Results

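The NF-kappa B genes of the mouse cortex described here are 10: the subunits Rela, Relb, Rel, Nfkb1 and Nfkb2, the inhibitors Nfkbia, Nfkbib and Nfkbie, and the kinases Ikbkb and Chuk. They were taken by gene name from count and FPKM tables of 48795 genes, and all 10 were among the 20010 genes that passed the low-count filter. Rela was chosen by its count level, which was lower in mice with 2 altered Msh3 alleles, so its levels across Msh3 genotypes are a description and carry no test. The other 9 were listed with it as genes of the same pathway.

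NF-kappa B is a family of transcription factors made of pairs of subunits that share the Rel homology domain, which binds DNA and joins the subunits. Inhibitor proteins of the I kappa B family hold the pairs in the cytoplasm until a kinase complex marks the inhibitor for destruction, after which the pair enters the nucleus and switches on genes of inflammation and cell survival. In the brain the pathway is known from microglia and astrocytes, and from neurons, where it responds to synaptic activity.

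RNA came from the cerebral cortex of 48 C57BL/6 mice aged 6 months, made into libraries with a stranded kit. The mice formed 6 groups: 7 WT (wild type), 8 Q140 (heterozygous for a knock-in allele that models Huntington's disease), 9 Msh3+/-, 8 Msh3-/-, and the crosses of Q140 with each, 8 Q140 x Msh3+/- and 8 Q140 x Msh3-/-. Each held both sexes, with 3 females and 4 males in WT, 5 females and 4 males in Msh3+/-, and 4 of each in the others. Msh3 encodes a DNA mismatch repair protein known for its part in the lengthening of CAG repeats in the disease gene Htt. The labels give neither the repeat length nor the construction of the Msh3 allele, and they do not say whether mice of a group shared litters.

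Libraries held from 35946572 to 64479357 counts. Msh3 RNA was higher, not lower, in the groups labelled Msh3+/- and Msh3-/-: it was 23.9 ± 1.21 CPM (counts scaled to a common library size; SD, n = 15) with 0 altered alleles, 67.0 ± 4.57 (n = 17) with 1 and 111 ± 7.39 (n = 16) with 2. The RNA therefore separates the labelled groups but does not show a loss of Msh3, and "altered allele" is used here as the label gives it. Htt stood between 237 and 242 CPM in the group means. On the second principal component, 3 outlying libraries (Msh3+/- male 2, Q140 male 1, and male 4 of Q140 x Msh3-/-) stood together, at 32.4 to 36.5 where the next library was at 15.7. Msh3-/- females 3 and 4 and WT male 3 carried RNA of the choroid plexus, with a summed level of its 7 markers of up to 1192 CPM. Of 8 markers of blood leukocytes, Ptprc had a mean of 3.85 CPM and reached 5.42 CPM. The others were close to 0, with S100a9 at no more than 0.363 CPM and Cd3e at no more than 0.137 CPM in any library. In whole tissue, fewer cells of a type and less RNA per cell cannot be told apart.

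The start regions of Rela, Rel and Nfkbia are shown because the results below turn on these genes and because Rel and Nfkbia hold matches to the kappa B consensus, the sequence that NF-kappa B binds. Each run covers 250 bases before to 50 bases after the annotated start of RefSeq on GRCm38.p6, written 5' to 3' along the gene, with matches to the 10-base kappa B consensus in capitals. Rela lies at chr19:5637291-5637590 on the plus strand, Rel at chr11:23770920-23771219 on the minus strand and Nfkbia at chr12:55492598-55492897 on the minus strand.
Rela: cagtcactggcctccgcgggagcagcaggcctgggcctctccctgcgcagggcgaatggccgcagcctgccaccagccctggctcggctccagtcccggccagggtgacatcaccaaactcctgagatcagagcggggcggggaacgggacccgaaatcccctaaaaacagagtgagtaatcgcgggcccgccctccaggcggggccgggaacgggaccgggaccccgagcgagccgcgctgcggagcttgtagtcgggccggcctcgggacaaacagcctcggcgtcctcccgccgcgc
Rel: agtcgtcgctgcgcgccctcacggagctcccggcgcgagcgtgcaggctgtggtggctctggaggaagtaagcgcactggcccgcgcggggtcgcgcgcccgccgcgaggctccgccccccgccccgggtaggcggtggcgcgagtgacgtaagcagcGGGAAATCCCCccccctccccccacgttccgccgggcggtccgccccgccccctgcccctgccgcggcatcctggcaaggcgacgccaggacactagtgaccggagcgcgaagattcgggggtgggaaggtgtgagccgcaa
Nfkbia: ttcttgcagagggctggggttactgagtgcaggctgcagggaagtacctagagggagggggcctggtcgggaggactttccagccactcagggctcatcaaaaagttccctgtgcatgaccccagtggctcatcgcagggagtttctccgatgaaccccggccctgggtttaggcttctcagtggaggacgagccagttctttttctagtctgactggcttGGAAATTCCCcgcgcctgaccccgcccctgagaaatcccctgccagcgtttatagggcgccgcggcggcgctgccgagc

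The kappa B consensus was searched on both strands. A match at the same position on both strands was counted once, and overlapping matches at different positions were counted separately. It occurred in the regions of Rel, Nfkb2, Nfkbia and Nfkbie, that is in 4 of the 7 members found in the table, beside 9.55% of all genes and 8.46% of 32851 regions of the same length. Rel held 2 overlapping matches, 92 and 91 bases before the start, and Nfkbia held 1 match 29 bases before the start on the strand opposite to the gene. Nfkbie, at 1 match, had it 106 bases before the start. Nfkb2, which has 3 start regions in the table, held 3, 2 and 1 matches in them. The last 2 of these regions overlap, and they share 1 match, which is counted in each. The regions of Rela, Nfkbib and Chuk had no match to these letters in this window. A match describes the sequence alone. None of the 10 genes lies on chromosome 13, which carries Msh3, or on chromosome 5, which carries Htt: Rela, Nfkb2 and Chuk are on chromosome 19, Relb and Nfkbib on 7, Rel on 11, Nfkb1 on 3, Nfkbia on 12, Nfkbie on 17 and Ikbkb on 8 (GRCm38).

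By FPKM, the inhibitors Nfkbib and Nfkbia, the kinase Chuk and the subunit Rela were the highest members in the cortex. On this scale the other subunits stood well below them. FPKM, deposited by the authors, divides counts by a fixed length per gene and by depth of library. Its mean over the 48 mice was 9.97 ± 0.593 for Nfkbib, 9.78 ± 0.633 for Chuk, 9.33 ± 1.54 for Nfkbia and 7.82 ± 0.543 for Rela. The kinase Ikbkb, which phosphorylates the inhibitors, followed at 3.16 ± 0.175 FPKM. Nfkb1, whose precursor yields the p50 partner of Rela, was at 1.69 ± 0.087 FPKM. Rel, which encodes c-Rel, was at 0.996 ± 0.159 FPKM, close to Relb, a subunit of the non-canonical branch, at 0.978 ± 0.144. The third inhibitor, Nfkbie, stood at 0.973 ± 0.151 FPKM, and Nfkb2, the precursor of the partner of Relb, was lowest at 0.602 ± 0.083. Nfkb2 overlaps Psd on the opposite strand by 299 bases, and Psd was at 356 CPM, so reads of Psd could be part of the Nfkb2 counts if the counting did not use strand.

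**Figure D1:**
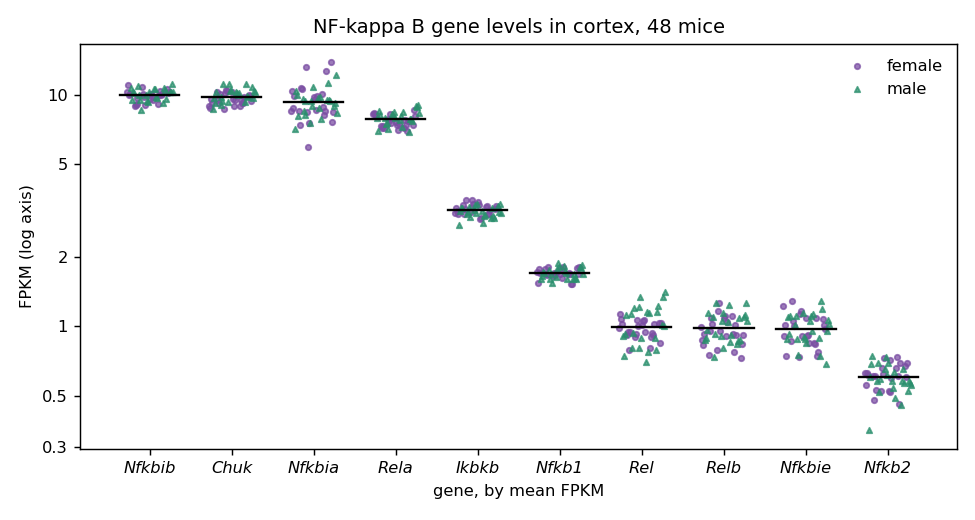
FPKM (log axis) of the 10 NF-kappa B genes in each of 48 mice, ordered by mean, with circles for females, triangles for males and a black line at the mean. Nfkbib, Chuk, Nfkbia and Rela form the upper level between 7.82 and 9.97 FPKM, and Nfkb2 is lowest at 0.602.

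Part of this order by FPKM held in every mouse. Rela was above Ikbkb, Ikbkb above Nfkb1, Nfkb1 above Rel and Nfkbie above Nfkb2 in 48 of 48 mice. Within the upper level the order was mixed: Nfkbib exceeded Chuk in 28 of 48 mice, Chuk exceeded Nfkbia in 33 and Nfkbia exceeded Rela in 40. Rel exceeded Relb in 24 mice and Relb exceeded Nfkbie in 27, so on this scale these 3 genes did not differ beyond their spread. The scale matters for Ikbkb, which had the highest CPM of the members, 60.4 ± 3.29. The authors' FPKM divided its counts by a length of 19078 bases, beside 2716 bases for Rela and 1577 for Nfkbia. It matters for the subunits too. Nfkb1, divided by 12061 bases, had a mean of 20.4 CPM beside 21.3 CPM for Rela. Gm43430, at 0.484 CPM, overlaps Nfkb1 by 3897 bases on the same strand, where strand cannot separate reads. Its part in the Nfkb1 counts was not tested. Rel, divided by 7466 bases, had 7.44 CPM, beside 3.80 CPM for Relb, divided by 3885.

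Across the 6 genotypes the members differed little. The highest group mean exceeded the lowest by a ratio of 1.14 for Rela and Rel, 1.13 for Nfkb2, 1.101 for Nfkbib, 1.098 for Nfkbia, 1.096 for Relb, 1.09 for Nfkb1 and Chuk and 1.07 for Nfkbie and Ikbkb. All later levels are in CPM and are compared within a gene. A change is a difference on the log2 scale, given ± its standard error, from edgeR's quasi-likelihood fit to all 48 mice with sex as a covariate. A gene counts as changed at a Benjamini-Hochberg adjusted p below 0.05 over all 20010 genes.

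Rela encodes p65, the subunit with the transactivation domain of the common NF-kappa B pair, and was chosen for its level in these groups. In WT the lowest, median and highest mouse had 20.4, 23.3 and 24.4 CPM, and in Q140 18.8, 22.2 and 23.0 CPM. In Msh3-/- these values were 19.1, 20.7 and 22.6 CPM, and in Q140 x Msh3-/- 19.4, 20.01 and 21.4 CPM. Of the 16 mice with 2 altered alleles, 15 lay below the median of the 15 mice without, and 0 lay below the lowest of them. That lowest mouse was Q140 male 2, at 18.79 CPM, while the other Q140 mice had 21.3 to 23.0 CPM. Without it, 9 of the 16 lay below the lowest of the remaining 14 mice, so the groups overlapped with and without it.

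With 1 altered allele, mice with and without Q140 are given separately. Msh3+/- mice had 18.8, 21.1 and 21.6 CPM of Rela (lowest, median, highest), and Q140 x Msh3+/- mice had 20.8, 21.8 and 22.6 CPM. The highest Msh3+/- mouse was below the WT median, while the Q140 x Msh3+/- range lay inside that of Q140 only through Q140 male 2. Without that mouse 2 of 8 Q140 x Msh3+/- mice lay below the lowest Q140 mouse. Over both Q140 states, mean Rela was 22.4 ± 1.46 CPM with 0 altered alleles (SD, n = 15), 21.04 ± 1.08 with 1 (n = 17) and 20.4 ± 0.985 with 2 (n = 16).

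**Figure D2:**
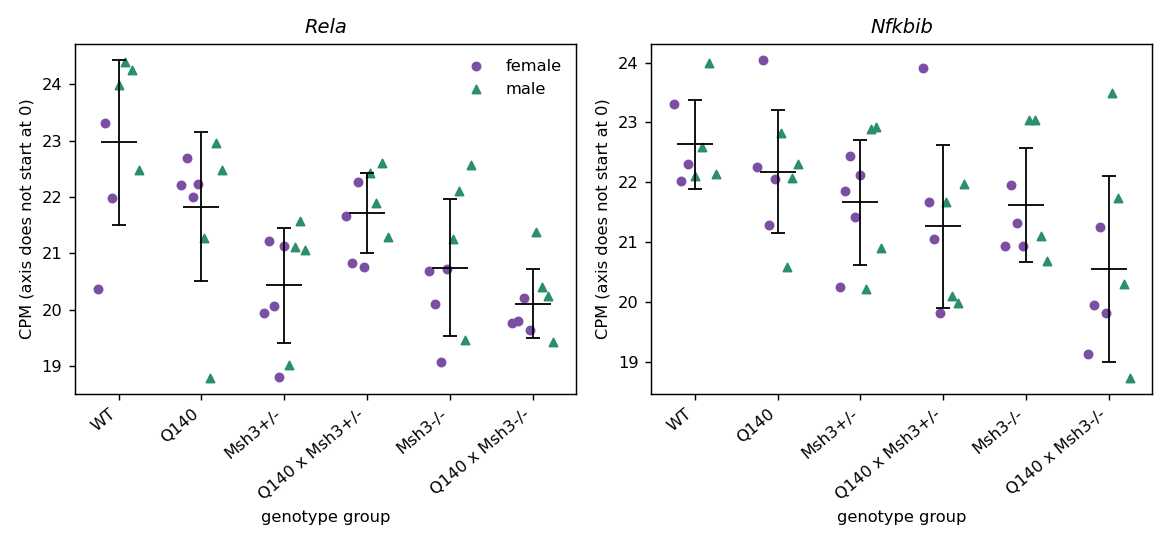
CPM of Rela (left) and Nfkbib (right) in each mouse of the 6 genotype groups, circles for females and triangles for males, with the mean and SD as bars; the axes do not start at 0. WT holds the highest mean of both genes, at 23.0 CPM for Rela and 22.6 CPM for Nfkbib, Q140 x Msh3-/- the lowest, at 20.1 and 20.6 CPM, and the groups overlap.

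The log2 change of Rela was -0.14 ± 0.039 for Msh3-/- against WT and -0.12 ± 0.037 for Q140 x Msh3-/- against Q140. It was -0.16 ± 0.038 for Msh3+/- against WT and -0.0092 ± 0.037 for Q140 x Msh3+/- against Q140. Averaged over Q140 status, it was -0.13 ± 0.027 for 2 altered alleles against 0 and -0.086 ± 0.026 for 1 against 0. The comparisons of Msh3+/- and Msh3-/- share the WT or Q140 mice, so they are not separate evidence of a lower level, and none was tested because the gene was chosen for it. For 2 against 0 altered alleles the change was -0.14 in females and -0.11 in males, -0.13 without the 3 outlying libraries and -0.12 without the 3 with choroid plexus RNA. Without Q140 male 2 it was -0.14 ± 0.024, and the change for Q140 x Msh3+/- against Q140 was -0.040 ± 0.034.

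Whether the Rela difference itself varied with Q140 is read from the same levels of the same mice. It is therefore also a description and carries no test. The effect of 1 altered allele with Q140 minus that without was 0.15 ± 0.053. For 2 altered alleles this difference was 0.024 ± 0.054. In this order the differences were 0.050 and -0.050 in females only, and 0.24 and 0.089 in males only. Without Q140 male 2 the values were 0.12 ± 0.048 for 1 altered allele and -0.0067 ± 0.048 for 2. Rela in Q140 against no Q140, averaged over the Msh3 classes, was at -0.0096 ± 0.022 (95% interval -0.052 to 0.033, adjusted p = 0.980, edgeR).

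None of the other subunits passed the test in a comparison of Msh3 genotypes. Averaged over Q140 status, 2 altered alleles against 0 gave -0.015 ± 0.026 for Nfkb1, 0.054 ± 0.077 for Relb, -0.097 ± 0.080 for Rel and -0.058 ± 0.077 for Nfkb2. The intervals show what the data could miss: for Nfkb1 the 95% interval ran from -0.066 to 0.035, and for Rel from -0.25 to 0.059. Nfkb1 had its lowest p in Msh3+/- against WT, where it ranged from 18.3 to 20.7 CPM (median 19.7) in Msh3+/- and from 20.1 to 22.1 CPM (median 21.8) in WT. The 2 groups overlapped, and the change of -0.12 ± 0.036 had an adjusted p of 0.313 (edgeR).

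Among the inhibitors, Nfkbib, which encodes I kappa B beta, had the lowest p of the 9 genes in this comparison. Its lowest, median and highest values were 20.6, 22.3 and 24.0 CPM in the 15 mice with 0 altered alleles, 19.8, 21.7 and 23.9 CPM in the 17 with 1, and 18.7, 21.02 and 23.5 CPM in the 16 with 2. With 2 altered alleles 13 of 16 mice lay below the median of the mice without. The change of -0.087 ± 0.029 had an unadjusted p of 0.00397 and an adjusted p of 0.308 (edgeR), so it did not pass. Nfkbib overlaps Sirt2, a deacetylase gene on the opposite strand, by 778 bases. Sirt2 was at 112 CPM and its change was -0.021 ± 0.024. Whether the counting used strand is not given in the sources used here, so reads of the 2 genes could have been mixed.

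Nfkbia, the inhibitor that NF-kappa B itself induces, and Nfkbie were at -0.041 ± 0.084 and 0.039 ± 0.085 for 2 against 0 altered alleles. The kinases Ikbkb and Chuk, which encode IKK beta and IKK alpha, were at -0.020 ± 0.025 and 0.028 ± 0.029. Thus edgeR called 0 of these 9 genes, beside a background of 0.085% of all genes called and a median change of all genes of -0.0038. An unadjusted p under 0.05 was reached by 1 of the 9, near the 9.27% of all genes that reached it. The median over the 9 was -0.020, with 6 below 0, beside 52.6% of all genes below 0. DESeq2 and limma with voom weights also called 0 of 9.

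All 7 oligodendrocyte markers lay below 0 in the same comparison, with a median change of -0.10 and none called. Their summed level ranged from 1300 to 2564 CPM in Q140, from 1533 to 2392 in WT, from 1400 to 2164 in Msh3-/- and from 1525 to 1940 in Q140 x Msh3-/-. Group means of the 10 microglia markers lay between 295 and 312 CPM. Their part in the levels of Rela and Nfkbib was not tested.

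For 1 against 0 altered alleles, 0 of the 9 genes were called, beside 0.02% of all genes, and 1 had an unadjusted p under 0.05 (edgeR), beside 8.21% of all genes. That gene was again Nfkbib, at -0.061 ± 0.028 (adjusted p = 0.584, edgeR). In the single comparisons, too, 0 of 9 were called by edgeR, DESeq2 or voom: Msh3+/- against WT (background 0.025% of all genes called), Msh3-/- against WT (0.035%), Q140 x Msh3+/- against Q140 (0.02%) and Q140 x Msh3-/- against Q140 (0.045%). In this order 1, 1, 2 and 2 of the 9 had an unadjusted p under 0.05, beside 9.5%, 5.73%, 5.14% and 9.07% of all genes. Chuk had the lowest p in Q140 x Msh3+/- against Q140, with a median of 46.9 CPM in Q140 (43.8 to 52.7) and 52.5 CPM in Q140 x Msh3+/- (44.8 to 55.5). The ranges overlapped, and the change of 0.12 ± 0.040 had an adjusted p of 0.931 (edgeR).

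The Huntington's disease allele was set against its absence in each Msh3 class. In Q140 against WT, 9 of 10 members lay below 0 with a median of -0.077, beside a median of 0.0019 over all genes. The sexes did not share this direction for all members. Rela, Relb and Rel were at 0.030, 0.12 and 0.11 in females only and at -0.15, -0.23 and -0.36 in males only. Nfkb2 and Nfkbie were at -0.12 and -0.078 in females only and at 0.090 and 0.099 in males only. The remaining members lay below 0 in both. In Q140 x Msh3+/- against Msh3+/- 8 of 10 lay above 0 with a median of 0.065, and in Q140 x Msh3-/- against Msh3-/- 8 lay below 0 with a median of -0.020. None passed the test in any of the 3, by edgeR, DESeq2 or voom. The background was 0.01%, 0.015% and 0% of all genes called, and 49.1%, 51.5% and 51.3% of all genes lay below 0. The numbers with an unadjusted p under 0.05 were 2, 2 and 0 of 10, beside 5.48%, 6.2% and 6.8% of all genes.

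In Q140 against WT the 2 genes with an unadjusted p under 0.05 were Chuk and Nfkb1. Chuk had a median of 51.3 CPM in WT (48.1 to 54.3) and 46.9 CPM in Q140 (43.8 to 52.7), and the change of -0.11 ± 0.041 did not pass (adjusted p = 0.846, edgeR). Nfkb1 was at -0.086 ± 0.037 (adjusted p = 0.892, edgeR). In Q140 x Msh3+/- against Msh3+/- they were Rela, at 0.085 ± 0.036, and Nfkb1, at 0.077 ± 0.035 (both adjusted p = 0.780, edgeR).

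Averaged over the Msh3 classes, 0 of 10 members were called for Q140 by edgeR, DESeq2 or voom, beside 0.035% of all genes, and none had an unadjusted p under 0.05, beside 5.63% of all genes. The changes lay between -0.086 ± 0.067 for Nfkbia and 0.037 ± 0.062 for Nfkb2. For the best measured members the intervals were narrow: Ikbkb ran from -0.021 to 0.060, Chuk from -0.067 to 0.023 and Nfkb1 from -0.051 to 0.030.

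**Figure D3:**
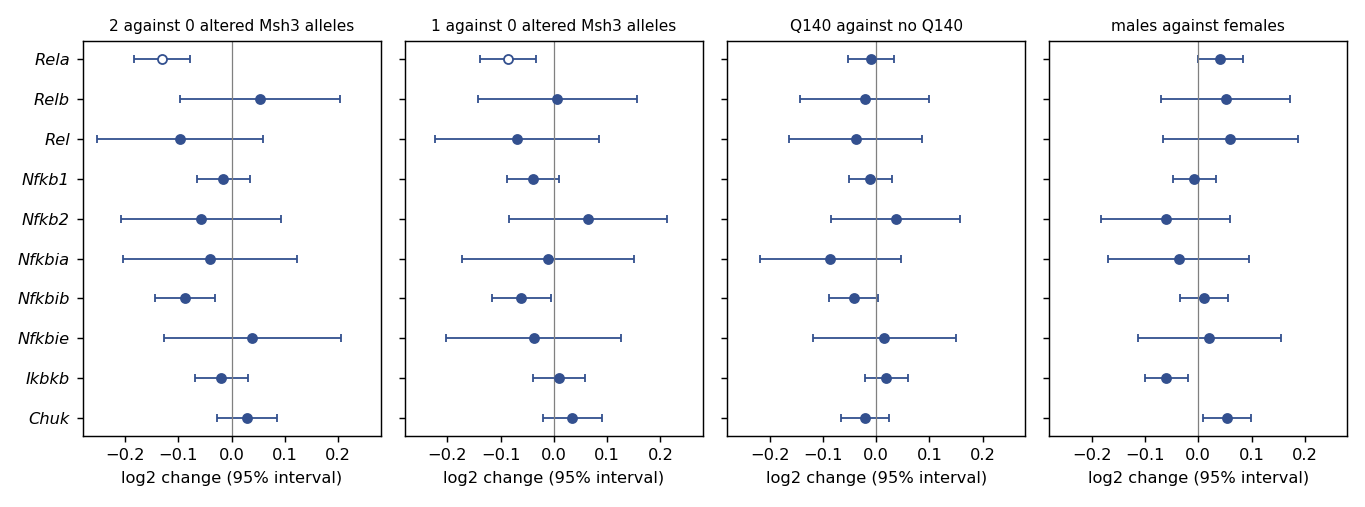
Log2 change of each gene with its 95% interval in 4 comparisons; open circles mark Rela in the 2 Msh3 comparisons, where it was chosen for its level and not tested. For 2 altered alleles Rela at -0.13, Rel at -0.097, with a wide interval, and Nfkbib at -0.087 lie lowest. Between the sexes the intervals of Ikbkb at -0.060 and Chuk at 0.054 leave out 0. No tested gene passed the adjusted p in these comparisons.

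The effect of 1 altered allele was also compared between mice with and without Q140. In 9 of 10 members, Rela among them, the effect with Q140 lay above that without, with a median difference of 0.14. Rela carries no test here, as it was chosen for its levels in these mice. Of the others, Nfkb1 at 0.16 ± 0.051, Chuk at 0.17 ± 0.056 and Ikbkb at 0.13 ± 0.050 had an unadjusted p under 0.05. Of all genes 6.43% reached this. The adjusted p was 0.709 for Nfkb1 and Chuk and 0.721 for Ikbkb (edgeR). None of the other 9 was called by edgeR, DESeq2 or voom, and edgeR called 0% of all genes. Over all genes 51.5% lay below 0, with a median of -0.0043. Rel and Relb were at -0.031 and 0.010 in females only and at 0.40 and 0.31 in males only. Nfkbie went the other way, at 0.26 in females only and -0.25 in males only. This contrast shares its mice with the comparisons of Q140 and of Msh3+/- against WT, so it is not separate evidence from them. For 2 altered alleles 8 of 10 lay above 0, where 51.3% of all genes lay below 0. An unadjusted p under 0.05 was reached by 1 (Ikbkb, 0.12 ± 0.051, adjusted p = 0.922, edgeR) beside 5.35% of all genes. The share of all genes called was again 0%.

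Between the sexes the kinases gave the lowest p. Ikbkb had a lowest, median and highest value of 55.3, 61.9 and 67.0 CPM in 24 females and 51.5, 59.9 and 64.0 CPM in 24 males. Its change of -0.060 ± 0.020 for males against females had an unadjusted p of 0.00500 and an adjusted p of 0.0684 (edgeR). It passed with voom weights (-0.063, adjusted p = 0.0422) and without the 3 libraries with choroid plexus RNA (-0.075, adjusted p = 0.0264, edgeR), and over all settings the adjusted p ran up to 0.193. An antisense gene, Gm15346, overlaps Ikbkb by 9382 bases and was too low to be tested.

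Chuk was higher in males, at a median of 50.9 CPM (43.8 to 57.2) against 48.8 CPM in females (44.8 to 53.5), with a change of 0.054 ± 0.023 that did not pass (adjusted p = 0.159, edgeR). The other 8 genes lay between -0.061 for Nfkb2 and 0.060 for Rel. In all, edgeR called 0 of 10 members and DESeq2 0, beside 5.56% of all genes called between the sexes. An unadjusted p under 0.05 was reached by 2 of 10, beside 20.7% of all genes. Of the cell type markers in this comparison, all 7 oligodendrocyte markers lay below 0 in males (median -0.11) and 3 of 7 astrocyte markers were called, 1 higher and 2 lower. All 5 red blood cell markers lay above 0 in males, with a median change of 0.91 and none called, and their summed level ran from 0.111 to 11.8 CPM in females and from 0.353 to 17.1 CPM in males. Of 7 neuron markers 1 was called, Slc17a7 at 0.077 ± 0.022 (adjusted p = 0.0269, edgeR). The summed oligodendrocyte markers ran from 1487 to 2564 CPM in females and from 1300 to 2392 in males, and the astrocyte markers from 4978 to 6169 and from 4816 to 5882 CPM. Their part in the kinase values was not tested.

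Among mice of the same genotype and sex, Nfkbia varied most of the 10 genes. Its SD within groups was 0.257 on the log2 CPM scale, where the median of 2382 genes of a like level was 0.103, and it exceeded 96.8% of these genes. The lowest mouse, Q140 x Msh3+/- female 3, had 9.28 CPM and the highest, WT female 1, had 22.0 CPM, a ratio of 2.37. Both extremes were thus females, and the SD was 0.312 in females and 0.186 in males.

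Rel had the next largest excess over its peers, with an SD of 0.231 beside a median of 0.139 in genes of a like level, above 88.9% of them. Here the spread was in males: Rel ran from 5.98 to 8.45 CPM in females (SD 0.112, log2) and from 5.24 to 10.4 CPM in males (SD 0.307). The ratio of the male to the female SD was 2.73 for Rel, above 99.8% of all genes, and 0.596 for Nfkbia, with 1.45% of genes below it; the median gene was at 1.06. These ratios were singled out after they were seen and were not tested.

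**Figure D4:**
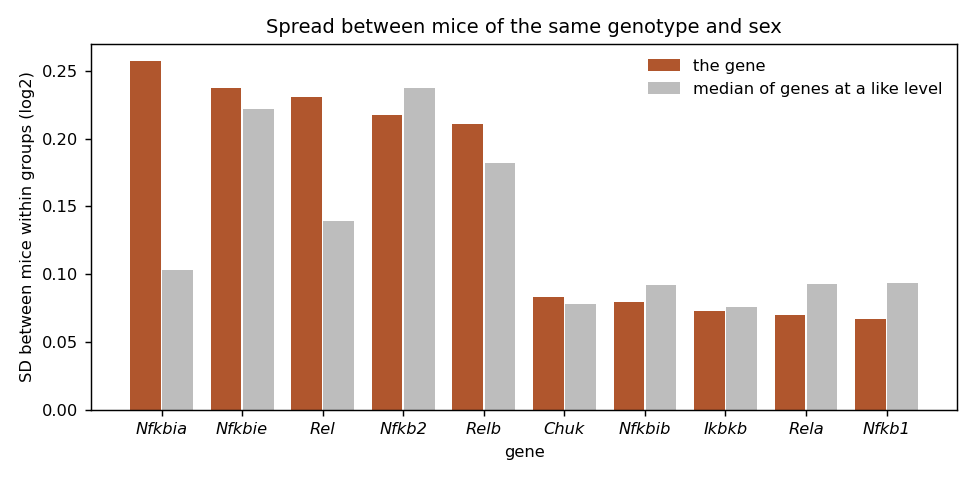
SD of log2 CPM between mice of the same genotype and sex for each gene (brown bars) and the median SD of genes at a like level (grey bars). Nfkbia at 0.257 and Rel at 0.231 stand above their peers at 0.103 and 0.139, and Rela at 0.070 and Nfkb1 at 0.067 stand below theirs.

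Rela and Nfkb1, the partners of the common pair, varied least. The SD of Rela was 0.070, with 13.2% of genes of a like level below it, and that of Nfkb1 was 0.067, with 8.57% below it. Nfkbib was at 0.079, Ikbkb at 0.073 and Chuk at 0.083. The low genes Relb, Nfkb2 and Nfkbie lay between 0.211 and 0.237, near the medians of 0.182 to 0.238 for genes of their levels.

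Once the means of each genotype and sex were removed, the 10 genes were only loosely tied to each other over the 48 mice. Of 45 pairs 32 had an r above 0. Pearson's r of each pair was put to a permutation test, adjusted over the pairs. The permutations moved values over all 48 mice without allowing for the removed means, so all p-values of this test are too low. With this limit, 1 pair passed. This was Nfkb2 and Ikbkb, at r = 0.530 (permutation p = 9.0e-05, adjusted p = 0.00405) and rho = 0.437 (permutation p = 0.00219, adjusted p = 0.0855). Without the 2 mice farthest from the median of Nfkb2, r was 0.354. Without the 3 outlying libraries r was 0.345 and no longer passed (adjusted p = 0.148, permutation test). Q140 male 1, which is one of them, was the lowest of 48 mice for Nfkb2, Ikbkb and Chuk. Without that library alone r was 0.336 over 47 mice and did not pass (adjusted p = 0.133, permutation test), so the call rests on it.

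A further 5 pairs shared an adjusted p of 0.0521 (permutation test): Ikbkb and Chuk, Relb and Chuk, Nfkb2 and Chuk, Nfkb1 and Nfkb2, and Nfkbia and Nfkbib. Their r lay between 0.384 and 0.412, and as this p is too low, they are not counted as near the threshold. Rela was most tied to Nfkbib, at r = 0.362 (permutation p = 0.0111) and rho = 0.354 (permutation p = 0.0140), with r = 0.291 without 2 mice and an adjusted p of 0.0711. Rela and its partner Nfkb1 had an r of 0.163 (permutation p = 0.272) and a rho of 0.111 (permutation p = 0.453). Nfkbia, the inhibitor of Rela, had an r of -0.111 with it (permutation p = 0.452) and a rho of -0.020 (permutation p = 0.892).

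The pattern of each gene over the 48 mice was also set against the other genes with a mean of at least 5 CPM (11889 for Nfkbia, Rela and Rel), as a description of the most similar ones. For Nfkbia these were Fzd4, a Wnt receptor, with r = 0.850, the kinase Sgk1 with 0.843, the leucine zipper gene Tsc22d3 with 0.828, the zinc finger gene Zfp651 with 0.827 and the small GTPase Rhob with 0.826. In 95% of the compared genes the r with Nfkbia was below 0.432. Without the 2 mice farthest on Nfkbia, r was 0.817 with Fzd4 and 0.771 with Sgk1. It was 0.859 in the 24 females and 0.850 in the 24 males with Fzd4.

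Rela was less closely followed by any gene. The nearest were Map3k11 with r = 0.673, Ric8a with 0.651, Egr4 with 0.649, Map3k14 with 0.624 and Coro1a with 0.617. In 95% of the compared genes the r with Rela was below 0.361. Without the 2 mice farthest on Rela, r was 0.641 with Map3k11 and 0.542 with Coro1a. In females and males r was 0.574 and 0.749 with Map3k11, 0.463 and 0.730 with Egr4, and 0.396 and 0.758 with Coro1a. It was 0.480 and 0.690 with Map3k14, and the other way with Ric8a, at 0.759 and 0.592. Map3k11 encodes a mixed-lineage kinase, Ric8a a chaperone of G protein subunits, Egr4 an immediate early transcription factor and Coro1a an actin-binding protein. Map3k14 encodes NIK, the kinase of the non-canonical NF-kappa B branch that acts on Chuk. For 2 against 0 altered alleles these 5 were at -0.11 ± 0.036, -0.073 ± 0.025, -0.27 ± 0.15, -0.16 ± 0.099 and -0.072 ± 0.034 in this order. None was called (lowest adjusted p 0.308, edgeR). These genes were picked for following Rela over the same mice, and Rela for its lower level here. Their values are therefore not separate evidence of a lower level.

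For Rel, a gene added after its spread had been seen, the nearest were Adamts1 at r = 0.776, Arl5b at 0.748, Dusp6 at 0.747, Trib1 at 0.737 and Nr4a1 at 0.736. Dusp6, a phosphatase of the ERK pathway, and Nr4a1, a nuclear receptor, are immediate early or activity-induced genes. The sexes differed in these values: with Adamts1 r was 0.917 in males and 0.055 in females, with Dusp6 it was 0.853 and 0.515, and with Nr4a1 it was 0.833 and 0.431. The difference in r was not tested, and Rel itself varied little among females.

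**Figure D5:**
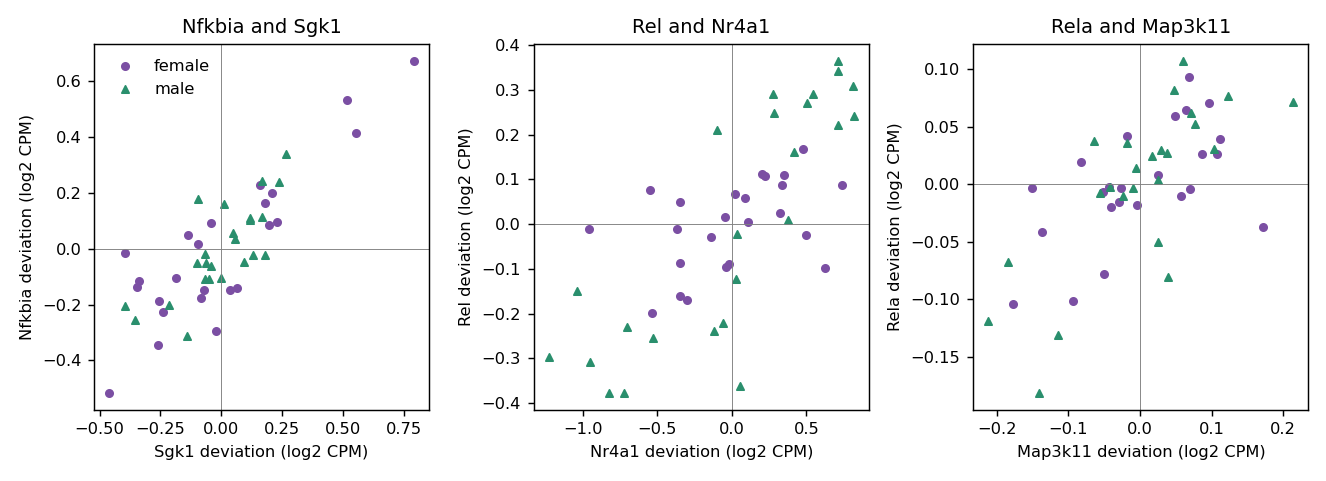
Deviations of log2 CPM from the mean of the mouse's genotype and sex, for Nfkbia and Sgk1 (left), Rel and Nr4a1 (middle) and Rela and Map3k11 (right), with 24 females as circles and 24 males as triangles. The points follow each other at r = 0.843, 0.736 and 0.673, the few highest and lowest Nfkbia points are females, and the Rel points spread farther in males.

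The rest of the pathway was read from 4 lists. Of 15 genes for ligands and receptors 13 were tested, of 19 adaptors and kinases 19, of 15 other inhibitors and feedback regulators 15 and of 23 target genes 15. With 2 against 0 altered alleles, edgeR called 0 genes of the 4 lists. Unadjusted p-values were under 0.05 for 0, 0, 2 and 1 genes, beside 9.27% of all genes, and the medians of the lists were -0.011, -0.0072, -0.016 and -0.0038, beside -0.0038 over all genes.

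The lowest p among these genes belonged to targets and inhibitors. Xiap, an inhibitor of apoptosis counted as a target, was at 0.076 ± 0.024 (adjusted p = 0.285, edgeR). The deubiquitinase Cyld, which restrains the pathway, was at 0.063 ± 0.021 (adjusted p = 0.308, edgeR), and Tank, a TRAF-binding regulator, was at 0.086 ± 0.032. Birc3, also a target, was at -0.13 ± 0.076. Of receptors and ligands, Cd14, a co-receptor of Tlr4, was at -0.20 ± 0.11 and the cytokine Il1b at -0.30 ± 0.22, and among kinases Irak1 was at -0.044 ± 0.027 and Map3k14 at -0.16 ± 0.099.

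Q140 against no Q140 gave 0 called genes in the 4 lists by edgeR, with 1, 0, 1 and 2 at an unadjusted p under 0.05, beside 5.63% of all genes. Ptgs2, the cyclooxygenase gene and a target, was at -0.25 ± 0.098 (adjusted p = 0.747, edgeR), and the stress gene Gadd45b at -0.16 ± 0.079. Il1a, a cytokine, was at 0.32 ± 0.13 and its receptor Il1r1 at 0.12 ± 0.066. Pdlim2, which promotes the destruction of p65, was at -0.13 ± 0.053, and Commd1 at -0.065 ± 0.034. Among adaptors and kinases Map3k14 was at -0.15 ± 0.080 and Traf6 at 0.037 ± 0.020.

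Between males and females 5 genes of the lists were called by edgeR, 3 higher in males and 2 lower. The adaptor Tab2 rose by 0.060 ± 0.017 (adjusted p = 0.0299), and Tnip2, which binds and restrains the pathway's ubiquitin signals, rose by 0.13 ± 0.028 (adjusted p = 0.00346). Ptgs2 rose by 0.38 ± 0.098 (adjusted p = 0.0129, edgeR for all 5). Tnip1, a partner of the feedback inhibitor A20, was at -0.092 ± 0.026 (adjusted p = 0.0254), and the target Tnfaip2 at -0.48 ± 0.11 (adjusted p = 0.00461). Not called were Map3k14 at 0.22 ± 0.081, Tlr4 at -0.19 ± 0.073 and Il1r1 at -0.17 ± 0.066. The 5 calls are 8.06% of the 62 genes tested in the 4 lists, beside 5.56% of all genes in this comparison.

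Many classical inducers and targets were barely detected in this tissue. Tnf, the cytokine that activates the pathway in many cells, had 50 counts in all 48 libraries together and 0 in 20 of them. Il6 had 104 counts, Ccl2 94, Cxcl1 83, Cxcl10 180 and Lcn2 153 in all libraries. Cxcl2 was at 0 in 42 libraries and Saa3 in 39. These genes, with Ccl5 and Tnfsf11, were below the filter and were not tested.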

How the data were processed

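Cortex RNA of 48 mice was sequenced. The authors deposited raw counts per gene and FPKM values. Per the submitters' processing notes they used STAR 2.7.5c, SAMtools 1.10 and HTSeq 0.12.3 on GRCm38. The deposited FPKM equal counts divided by a fixed length per gene and by library size. Members, pathway lists and marker lists were chosen with earlier results of these data known.

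Counts were filtered by filterByExpr on genotype, scaled by TMM and fitted with edgeR 4.0.16 (R 4.3.3) on genotype and sex over all mice, with p-values adjusted over 20010 genes. Alternatives used DESeq2 1.42.0, limma 3.58.1, other scalings and filters, FPKM with pseudocounts of 0.1 and 1, and subsets of mice. Scripts were tested on simulated data. For the correlations these had no group means removed, so that test could not check the permutation p-values after removal. P-values measure the spread between mice, which the labels do not tie to litters.

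Correlations used log2 CPM (prior count 1) with genotype-by-sex means removed and 100000 permutations. The permutations ran over all mice without allowing for the removed means, so their p-values are too low. Named genes were the 10 members, Msh3 and Htt, every called list gene, the 2 list genes with the smallest p in 3 comparisons, and the 5 genes most like Rela and Nfkbia. Those like Rel, the spread by sex and genes below the filter were named after their values were seen. Promoters came from RefSeq and matched 7 of 10 members, and positions from GENCODE M21, which matched 48435 of 48795 gene IDs.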

Additional observations from a re-analysis of the deposited data

Results flagged for a closer look

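In 60 sets of 7 to 9 mice, each 1 gene in 1 genotype group, 5 mice lay far from the rest of their group by a gap test on CPM that chance alone passes in about 1 of 20 groups. Rela was 18.79 CPM in Q140 male 2, where the other Q140 mice had 21.3 to 23.0. Ikbkb was 51.5 CPM and Nfkb2 1.153 CPM in Q140 male 1, where the other mice of the group had 58.6 to 62.3 and 1.84 to 2.45. Chuk was 55.63 CPM in Msh3+/- male 2, where the others had 46.4 to 50.9. Both Q140 male 1 and Msh3+/- male 2 are among the 3 outlying libraries on the second principal component. Nfkbie was 1.652 CPM in WT male 1, where the other WT mice had 2.33 to 2.63.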

How the results depend on the processing

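The count of members called stayed at 0 in each of the 13 comparisons under all settings that gave a value, except between the sexes, where it was 1 (Ikbkb) with limma voom weights and 1 without the 3 libraries with choroid plexus RNA. The number of correlated pairs, 1, was 2 on log2(FPKM + 0.1), where Ikbkb and Chuk joined, 0 without the 3 outlying libraries and 0 without Q140 male 1 alone, a setting added after the data were seen. The Rela change for 2 against 0 altered alleles lay between -0.16 (plate column of the well as a factor) and -0.11 (males only), and for 1 against 0 between -0.0997 and -0.077. For Q140 x Msh3+/- against Q140 it lay between -0.060 in females and 0.045 in males. Genotypes were uneven over the plate columns. Of the Q140 x Msh3-/- libraries 3 were in column 3 and 4 in column 4, and columns 1 and 5 held 0 WT libraries. Plate column as a factor thus separates position from genotype only in part. With a replicate block by the number in the sample titles, the Rela change for 2 against 0 altered alleles was -0.13 and the count of members called 0. The block changed no call of a member; the numbers have no stated meaning, and same-numbered mice did not deviate together (mean r of -0.0077 over 115 pairs). Mice that share the first part of a column name had a consensus correlation of 0.106, and a random block for it changed no call. Without Q140 male 2, added after the data were seen, no call of a member changed. The precision of Relb, Nfkb2 and Nfkbie may be limited by their low counts, which was not tested.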
